A study of Mus musculus with 20 samples.

Results

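The genes described here are 10 genes of lipid-associated macrophages and of monocytes and macrophages in general: Trem2, Gpnmb, Cd9, Itgax, Cd52, Lyz1, Lyz2, Cd68, Itgam and Csf1r. They were chosen by name, as every non-control probe that the scanner files annotate to one of these symbols. The 10 genes have 15 probes among the 55642 kept on the array, with 3 probes each for Itgam and Csf1r, 2 for Cd68 and 1 for each of the others. Of the 10 genes, 9 passed the filter on dim probes and were tested among 20684 genes, and Gpnmb did not pass.

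Liver RNA of 20 male mice was labelled with Cy3 and hybridised to 1-colour Agilent mouse arrays, 1 array per mouse. The 5 inbred strains had 4 mice each. NZO mice (NZO/HiBomDife) are the obese, diabetes-susceptible strain, DBA mice (DBA/2J) and C3H mice (C3HeB/FeJ) are lean and susceptible, and B6 mice (C57BL/6) and 129Ola mice (129P2/OlaHsd) are lean and resistant. All groups shared sex, tissue and a diet with 45% fat, and the sources read as week 6 of age or of feeding, so the data hold strain differences on the diet and no diet effect.

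Lipid-associated macrophages are macrophages that take up and break down lipid, first described in obese adipose tissue and also found in fatty liver. TREM2, a surface receptor for lipids and apoptotic debris, signals through the adaptor TYROBP and is required for the programme in mice, and GPNMB, CD9 and CD11c (the Itgax product) are used to mark these cells. Lysozyme, CD68, CD11b (the Itgam product) and the CSF1 receptor are found more widely on monocytes and macrophages, and most macrophages of a healthy liver are resident Kupffer cells.

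Levels below are log2 signals minus the 75th percentile of the same array, so a level of 0 is the 75th percentile, and levels of different probes are not compared. Between 40% and 59% of the probes on an array were well above background, and the share was lowest on the 129Ola arrays (40% to 43.3%). NZO, DBA and B6 arrays were read with one software version and C3H and 129Ola arrays with another, on different scan days, so that strain cannot be told apart from version for pairs across these sets. All C3H arrays were scanned on a single day and all 129Ola arrays on another, so strain cannot be told apart from scan day for that pair. The 10 hepatocyte genes were well above background on every array, and 15 of 16 Kupffer cell genes were too. In whole liver, fewer cells of a type and less RNA per cell cannot be told apart.

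Trem2 stood out in B6 livers and was lower in the other 4 strains. The Trem2 level was -1.39, -1.12, -1.50 and -1.79 in NZO mice 3, 7, 9 and 11 and -2.73, -1.73, -1.76 and -1.54 in DBA mice 5, 8, 9 and 15, against 0.12, -0.09, 0.38 and -0.12 in B6 mice 9, 10, 11 and 15. The B6 values were the highest of these. In C3H mice 1, 2, 3 and 5 it was -1.49, -1.78, -1.70 and -1.81. In 129Ola mice 4, 5, 7 and 9 it was -1.19, -2.46, -3.18 and -1.10, and the -2.46 and -3.18 were not well above background. All 4 B6 mice lay above the 16 other mice, and the other strains overlapped each other. The Trem2 difference was -1.52 ± 0.36 for NZO minus B6 (SE, n = 4 each, limma adjusted p = 0.006, 2.87-fold lower) and -2.01 ± 0.36 for DBA minus B6 (limma adjusted p = 0.00056, 4.03-fold lower). With normexp background correction these were -0.80 and -1.07, both still called. Below B6 the strain means ran NZO (-1.45), C3H (-1.69), DBA (-1.94) and 129Ola (-1.98), and no neighbours in that order differed beyond their spread (limma adjusted p between 0.62 and 0.931).

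**Figure D1:**
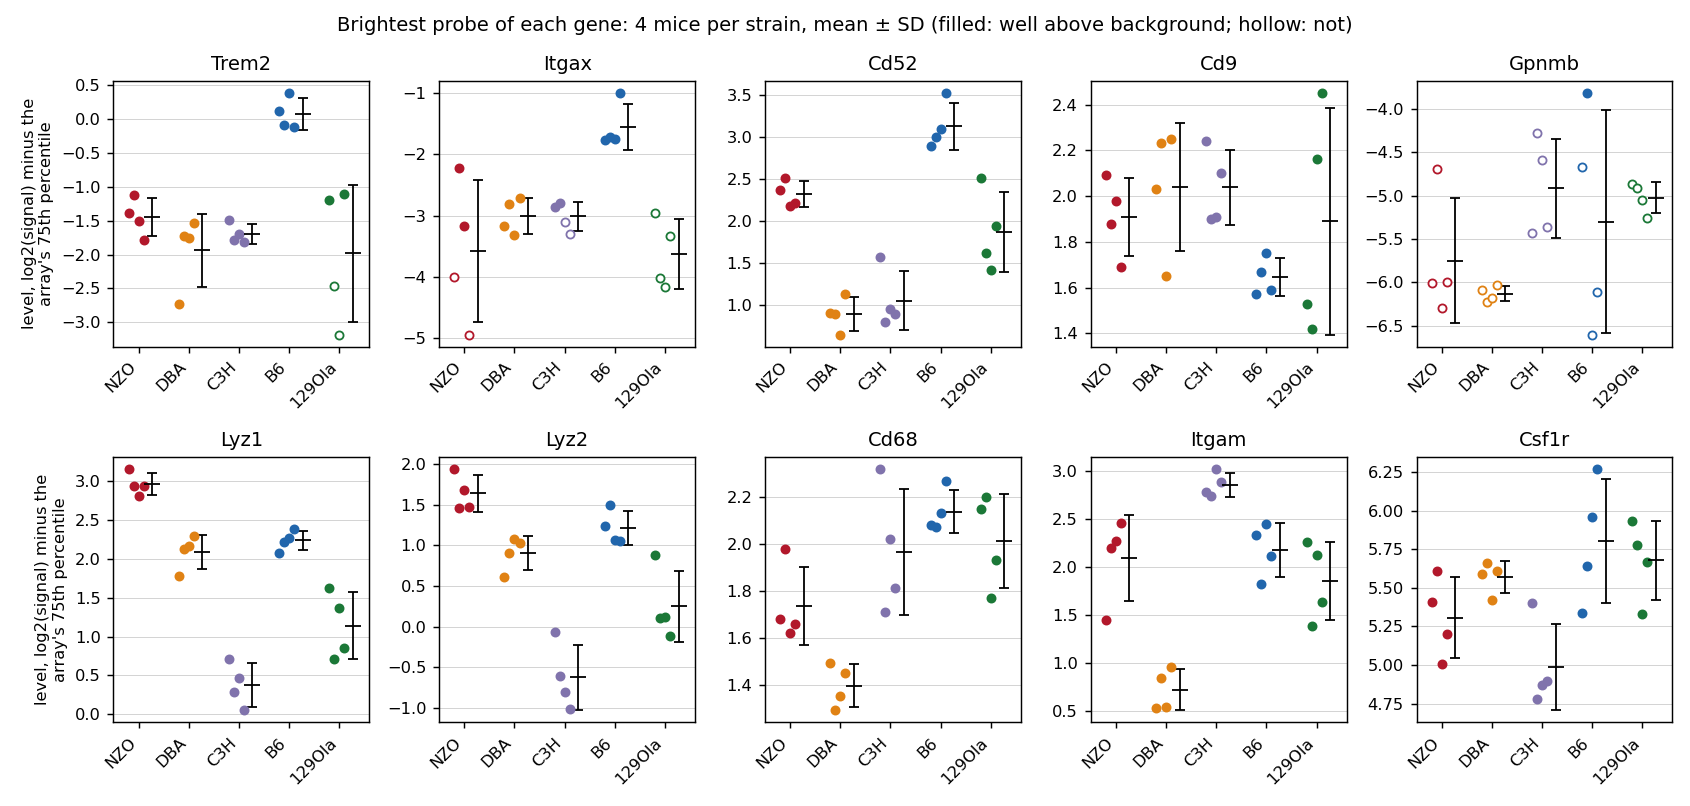
Level of the brightest probe of each of the 10 genes (log2 signal minus the array's 75th percentile) in every mouse of the 5 strains, with the mean ± SD of 4 mice as a bar; hollow points were not well above background. Trem2 and Itgax were highest in all 4 B6 mice, Lyz1 was highest in all 4 NZO mice, and Gpnmb was well above background in 1 mouse only.

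Itgax, which encodes the integrin alpha chain CD11c of dendritic cells and lipid-associated macrophages, was also highest in B6 livers. The Itgax level was -4.00, -2.23, -3.16 and -4.94 in NZO mice 3, 7, 9 and 11 and lay between -3.32 and -2.71 in the DBA mice, against -1.76, -1.72, -1.75 and -1.0 in B6 mice 9, 10, 11 and 15. The C3H mice lay between -3.30 and -2.79, against -4.17 to -2.96 in the 129Ola mice. Every B6 mouse was above every other mouse, although the probe was well above background in only 2 NZO, 2 C3H and 0 129Ola mice, against 4 DBA and 4 B6 mice. The difference was -2.02 ± 0.42 for NZO minus B6 (SE, limma adjusted p = 0.00194) and -1.44 ± 0.42 for DBA minus B6 (limma adjusted p = 0.023). With normexp background correction the calls held but the differences were -0.37 and -0.45, so the size of the Itgax difference depends on how the background is handled. The DBA call was lost without B6 mouse 15 (-1.26, limma adjusted p = 0.0793), without DBA mouse 9 (-1.34, limma adjusted p = 0.0676) and with the scan day as a block (-1.69, limma adjusted p = 0.0949). Set at the lowest signal well above background, 129Ola was at least 2.23-fold lower than B6, across software versions and without normexp. The fit on the measured values gave -2.06 (limma adjusted p = 0.000563), and the bound itself was not tested.

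Gpnmb encodes a transmembrane glycoprotein that rises in macrophages with lysosomal stress, and DBA/2J mice are known to carry a premature stop in it. The Gpnmb probe was well above background on 1 of 20 arrays, that of B6 mouse 10, where its level was -3.82. In every other mouse it lay between -6.60 and -4.28, which is not a measured level. Gpnmb was therefore not detectable in these livers with this probe, and no difference between strains can be given.

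Cd9 encodes a tetraspanin found on many cell types besides macrophages. The Cd9 level averaged 1.91 ± 0.17 in NZO, 2.04 ± 0.28 in DBA, 2.04 ± 0.16 in C3H, 1.65 ± 0.08 in B6 and 1.89 ± 0.49 in 129Ola (SD, n = 4 each). It passed the test in none of the 10 pairs of strains, and its smallest limma adjusted p was 0.118, for C3H minus B6. B6, the strain with the highest Trem2 and Itgax levels, had the lowest Cd9 mean.

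Cd52 encodes a small glycoprotein on the surface of lymphocytes, monocytes and dendritic cells, so it is not confined to macrophages. The Cd52 level was 2.37, 2.51, 2.18 and 2.21 in NZO mice 3, 7, 9 and 11 and 0.91, 0.89, 0.65 and 1.13 in DBA mice 5, 8, 9 and 15, against 2.89, 3.00, 3.09 and 3.52 in B6 mice 9, 10, 11 and 15. These 3 sets of mice did not overlap, with B6 highest and DBA lowest. The difference was -2.23 ± 0.21 for DBA minus B6 (SE, limma adjusted p = 5.55e-07, 4.69-fold lower), -0.81 ± 0.21 for NZO minus B6 (limma adjusted p = 0.0127) and 1.42 ± 0.21 for NZO minus DBA (limma adjusted p = 8.55e-05). In the C3H mice Cd52 lay between 0.80 and 1.57, against 1.42 to 2.51 in the 129Ola mice, a difference of -0.82 ± 0.21 (SE, limma adjusted p = 0.00685) with C3H mouse 1 inside the 129Ola range. The order was B6, NZO, 129Ola, C3H and DBA, and NZO and 129Ola (limma adjusted p = 0.0904) and C3H and DBA (limma adjusted p = 0.586) did not differ beyond their spread.

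Lyz1 and Lyz2 encode the 2 mouse lysozymes, enzymes that cut bacterial cell walls, and Lyz2 is the form usually used as a marker of the myeloid lineage. Both were highest in NZO and lowest in C3H. The Lyz1 level was 3.16, 2.94, 2.81 and 2.94 in NZO mice 3, 7, 9 and 11 and 1.78, 2.13, 2.17 and 2.29 in DBA mice 5, 8, 9 and 15, against 2.08, 2.22, 2.27 and 2.38 in B6 mice 9, 10, 11 and 15. The NZO mice lay above all others, and the DBA mice overlapped the B6 mice. In C3H mice 1, 2, 3 and 5 Lyz1 was at 0.71, 0.28, 0.46 and 0.05, against 1.63, 0.71, 1.37 and 0.85 in 129Ola mice 4, 5, 7 and 9, so that C3H was at or below every 129Ola mouse.

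The Lyz1 difference was 0.72 ± 0.18 for NZO minus B6 (SE, n = 4 each, limma adjusted p = 0.0093, 1.65-fold), 0.87 ± 0.18 for NZO minus DBA (limma adjusted p = 0.00211) and -0.77 ± 0.18 for C3H minus 129Ola (limma adjusted p = 0.0037). Lyz2 averaged 1.64 ± 0.23 in NZO, 0.91 ± 0.21 in DBA, -0.63 ± 0.40 in C3H, 1.21 ± 0.20 in B6 and 0.25 ± 0.43 in 129Ola (SD, n = 4 each). The strains thus kept the order NZO, B6, DBA, 129Ola and C3H in both genes. For Lyz2, NZO and B6 overlapped and did not pass the test (0.43 ± 0.21, limma adjusted p = 0.191). Lyz2 passed for NZO minus DBA (0.73 ± 0.21, limma adjusted p = 0.0223) and for C3H minus 129Ola (-0.87 ± 0.21, limma adjusted p = 0.00434). The NZO minus DBA call of Lyz2 was lost without NZO mouse 3 (0.63, limma adjusted p = 0.0781) and without DBA mouse 5 (0.63, limma adjusted p = 0.0649). With the slide as a random block neither lysozyme passed for C3H minus 129Ola (limma adjusted p = 0.0737 for Lyz1 and 0.106 for Lyz2).

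**Figure D2:**
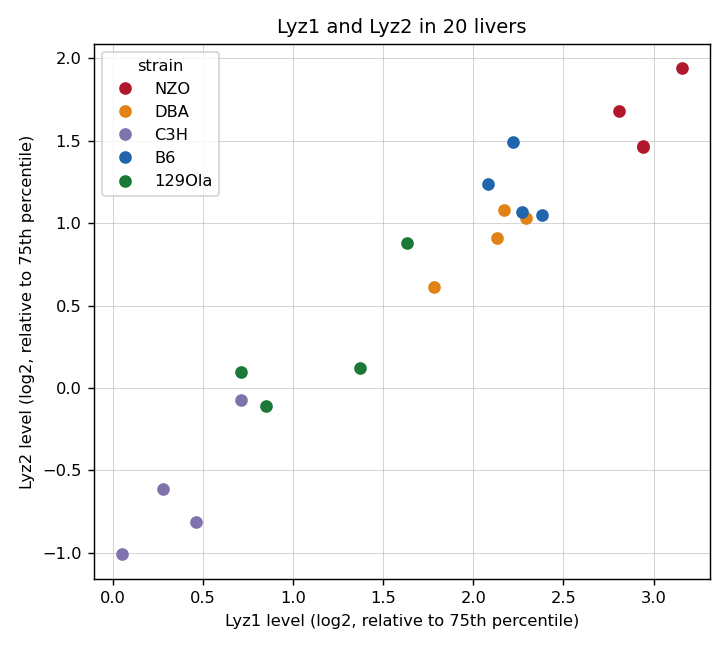
Lyz1 level (x axis) against Lyz2 level (y axis), both as log2 signal minus the array's 75th percentile, 1 point per mouse and 1 colour per strain. NZO mice lie at the top right and C3H mice at the bottom left.

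Across the 20 livers Pearson's r between Lyz1 and Lyz2 was 0.97, and it was 0.72 after the strain means were subtracted. The points share the array and its scaling. The genes are closely related neighbours. Their probes (mm9 chr10:116724862-116724921 for Lyz1 and chr10:116719175-116719234 for Lyz2, both on the minus strand) share no run of bases longer than 6. That does not show whether a probe also binds the transcript of the other gene, which was not tested. Because the 2 genes moved together, the 250 bases before each annotated start are shown, from RefSeq on GRCm38.p6 (chr10:117292869-117293118 for Lyz1 and chr10:117282273-117282522 for Lyz2, minus strand), with the longest run that both hold in capitals.
Lyz1 promoter: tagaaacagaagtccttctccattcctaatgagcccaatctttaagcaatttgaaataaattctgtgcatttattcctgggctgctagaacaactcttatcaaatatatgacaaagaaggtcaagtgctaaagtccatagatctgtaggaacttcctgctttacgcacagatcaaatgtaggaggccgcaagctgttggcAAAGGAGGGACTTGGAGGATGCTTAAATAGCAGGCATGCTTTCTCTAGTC
Lyz2 promoter: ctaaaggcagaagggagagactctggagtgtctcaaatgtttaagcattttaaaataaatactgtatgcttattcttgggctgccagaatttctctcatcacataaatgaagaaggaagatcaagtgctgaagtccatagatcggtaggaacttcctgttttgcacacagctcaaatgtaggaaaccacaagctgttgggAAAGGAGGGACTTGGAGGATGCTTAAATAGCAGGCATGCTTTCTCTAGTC
The shared run covers the 50 bases next to the start, and a global alignment of the 2 windows gave 79.7% identity. Promoter windows were found for 8 of the 10 genes, and 3 motifs were searched on both strands of the 250 bases. The letters GAGGAA, a core that PU.1 can bind, were found upstream of Trem2, Cd68 and Itgam (3 of 8 genes, against 23.3% of all 32851 promoters). TGANTCA, the AP-1 core, was found upstream of Trem2, Itgax and Cd68 (3 of 8, against 6.75%), and CACGTG, an E-box, was found in 0 of 8 (against 6.02%). Neither lysozyme window held any of these letters.

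Cd68 encodes a glycoprotein of macrophage lysosomes and endosomes and was lowest in DBA. On its brighter probe Cd68 was at 1.68, 1.98, 1.62 and 1.66 in NZO mice 3, 7, 9 and 11 and at 1.49, 1.29, 1.35 and 1.45 in DBA mice 5, 8, 9 and 15, against 2.08, 2.07, 2.13 and 2.27 in B6 mice 9, 10, 11 and 15. The 3 strains did not overlap, and the difference was -0.74 ± 0.13 for DBA minus B6 (SE, limma adjusted p = 0.000351) and -0.40 ± 0.13 for NZO minus B6 (limma adjusted p = 0.0347). The NZO minus B6 call was fragile: it was lost without any of 7 of the 8 mice taken singly, the exception being NZO mouse 7 (-0.48). The dimmer Cd68 probe was well above background in all NZO and B6 mice and in no DBA mouse, and by it DBA was at least 3.36-fold lower than B6 (limma adjusted p = 2.32e-05) and NZO at least 2.85-fold higher than DBA (limma adjusted p = 5.9e-05), but NZO minus B6 was -0.24 ± 0.37 (limma adjusted p = 0.727). These p-values are from the fit on the measured values, and the bounds themselves were not tested.

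Csf1r encodes the receptor for CSF1 and IL-34, on which liver macrophages depend for survival. On its brightest probe Csf1r was at 4.78 to 5.40 in the C3H mice, against 5.33 to 5.93 in the 129Ola mice, and the difference was -0.69 ± 0.19 (SE, limma adjusted p = 0.00932) with C3H mouse 1 inside the 129Ola range. The dimmest probe gave -0.84 ± 0.19 (limma adjusted p = 0.00269) and the middle probe 0.22 ± 0.12 (limma adjusted p = 0.179), so the 3 probes did not give 1 direction. For NZO minus B6 they gave -0.50 ± 0.19, -0.78 ± 0.12 and -0.47 ± 0.19 from brightest to dimmest, and only the middle probe passed the test (limma adjusted p = 0.000154). The middle and dimmest probes were lower in C3H than in B6 by -0.72 ± 0.12 and -1.53 ± 0.19 on the log2 scale, across the software versions.

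Itgam encodes the integrin alpha chain CD11b of monocytes, neutrophils and macrophages, and its 3 probes gave different results. On the brightest probe Itgam was at 0.54, 0.85, 0.55 and 0.96 in DBA mice 5, 8, 9 and 15, against 2.33, 1.82, 2.45 and 2.11 in B6 mice 9, 10, 11 and 15. The C3H mice lay between 2.74 and 3.02, against 1.39 to 2.26 in the 129Ola mice. DBA was below and C3H above every mouse of the other strains. The differences were -1.45 ± 0.22 for DBA minus B6 (SE, limma adjusted p = 8.33e-05), 1.37 ± 0.22 for NZO minus DBA (limma adjusted p = 0.000139) and 1.00 ± 0.22 for C3H minus 129Ola (limma adjusted p = 0.00187). The middle and dimmest probes gave -0.03 ± 0.38 and -0.19 ± 0.41 for DBA minus B6. For C3H minus 129Ola they gave -0.14 ± 0.38 and -0.16 ± 0.41, and neither passed the test in any pair of strains. Each of these probes was well above background in all DBA and B6 mice, but in only 2 C3H and 2 129Ola mice.

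The sequences of the Itgam probes differ in 1 visible respect. The first 30 of the 60 bases of each are shown, with those of the brightest probes of Fgf23 and Mcidas, the 2 genes whose levels ran most like the brightest Itgam probe, and capitals mark an unbroken alternation of C and A of at least 18 bases. Positions of the whole probes are on mm9, plus strand, at chr7:135261755-135261814, chr7:135260275-135260334 and chr7:135212140-135212199 for Itgam, chr6:127030758-127030817 for Fgf23 and chr13:113790543-113790602 for Mcidas.
Itgam probe 1: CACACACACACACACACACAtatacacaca
Itgam probe 2: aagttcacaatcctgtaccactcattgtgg
Itgam probe 3: tgttaaccagacaggtgccctctaccagtg
Fgf23 probe: cCACACACACACACACACACAtacatgtaa
Mcidas probe: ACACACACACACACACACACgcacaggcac
Fgf23 encodes a bone hormone and Mcidas a regulator of multiciliated cells. Their r with the brightest Itgam probe was 0.99 each over 20 arrays, and 0.98 and 0.95 after the strain means were subtracted. The brightest Itgam probe shared a run of 15 bases with 48 other probes, and each of the other 14 probes of the 10 genes with at most 1. Outside the 10 genes, 24 probes had a C and A run of at least 18 bases and were well above background on every array. Their r with the brightest Itgam probe lay between 0.81 and 0.99 (median 0.93), against a median of 0.05 for 19902 other such probes. All 24 were lower in DBA than in B6 (median difference -1.37) and higher in C3H than in 129Ola (median 0.59). This grouping was made after the values were seen and was not tested. The Itgam calls given here are values of the brightest probe, and the part of the repeat in them was not tested.

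**Figure D3:**
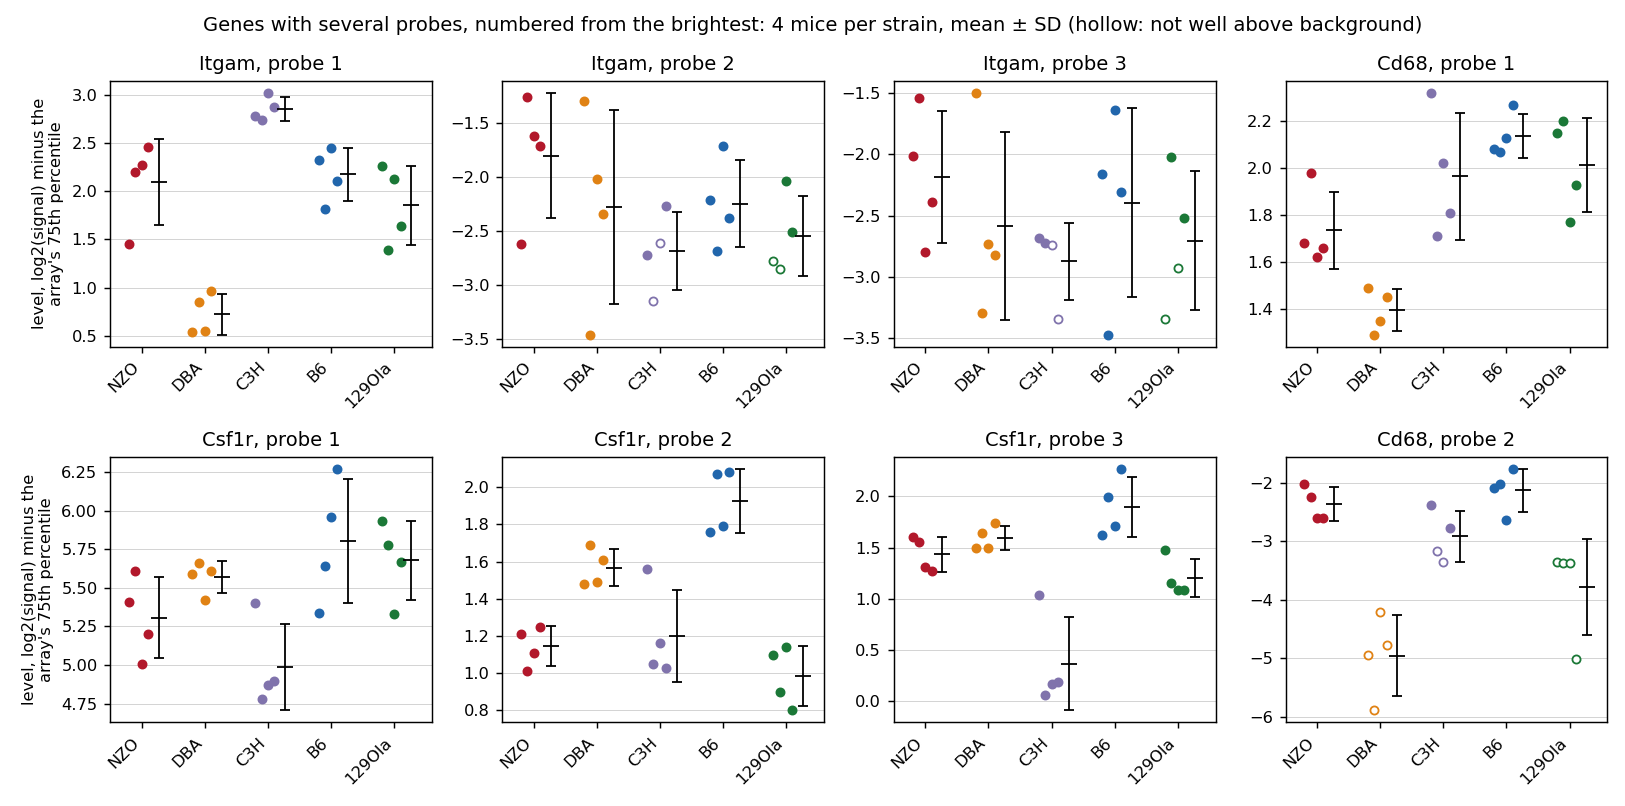
Levels by mouse (log2 signal minus the array's 75th percentile) for every probe of Itgam, Csf1r and Cd68, numbered from the brightest, with the mean ± SD of 4 mice; hollow points were not well above background. Among the Itgam probes DBA was lowest on probe 1 only, and the DBA and 129Ola mice were not well above background on Cd68 probe 2.

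For NZO minus B6, obese and susceptible against lean and resistant, 5 of the 9 tested genes passed the test. Trem2, Itgax, Cd52 and Cd68 fell and Lyz1 rose, against 18.2% of all genes past the threshold, 9.69% higher and 8.55% lower. In the same 5 genes the 4 mice of each strain did not overlap, against 22.4% of all genes. The median difference of the 9 genes was -0.40, against 0.05 over all genes. Within the scan days that held both strains the differences were -1.45 and -1.37 for Trem2, -2.67 and -0.48 for Itgax, -1.01 and -0.48 for Cd52, -0.52 and -0.13 for Cd68 and 0.67 and 0.76 for Lyz1, with 3 NZO against 2 B6 mice on the first such day and 1 against 2 on the other. With the percentile taken over the probes that every array measured above background, the split of all calls was 1563 higher and 2460 lower, against 2004 and 1769, and the 5 genes passed in the same directions, with Csf1r (-0.58, limma adjusted p = 0.0443) as a sixth.

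For DBA minus B6, both lean, 5 of 9 genes passed, all lower: Trem2, Itgax, Cd52, Cd68 and, on its repeat-bearing probe, Itgam. Over all genes 15.3% passed, 8.08% as lower, and the median difference was -0.74 in the 9 genes against 0.01. In 5 of 9 genes the mice did not overlap, against 19.7% of all genes. With the second brightest probe of genes that have several, 4 of 9 passed, without Itgam, and no share of all genes is given here for that setting. Lyz1 (-0.15 ± 0.18) and Lyz2 (-0.30 ± 0.21) did not pass the test. This comparison shares its B6 mice with the one of NZO.

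For NZO minus DBA, obese against lean within the susceptible strains, 4 of 9 genes passed, all higher: Cd52, Lyz1, Lyz2 and the brightest Itgam probe. Over all genes 18% passed, 9.78% as higher, and the median difference was 0.49 in the 9 genes against 0.04. The mice did not overlap in 5 of 9 genes, Cd68 being the fifth, against 20% of all genes. Trem2 (0.49 ± 0.36, limma adjusted p = 0.414) and Itgax (-0.58 ± 0.42, limma adjusted p = 0.401) did not pass the test.

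**Figure D4:**
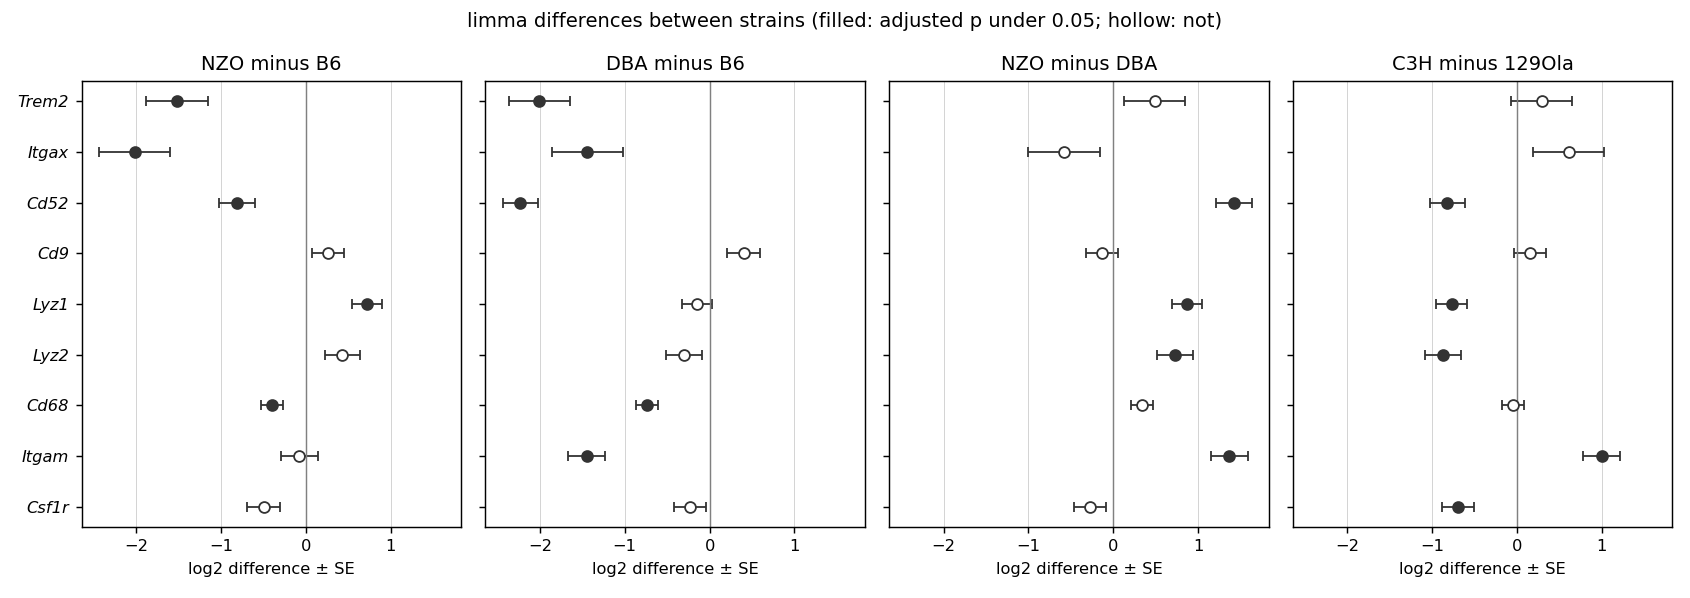
Log2 difference ± SE (x axis) of the 9 tested genes in 4 comparisons of strains, from the limma fit over all 20684 genes; filled points passed an adjusted p of 0.05. Trem2, Itgax, Cd52 and Cd68 are left of 0 and filled in both comparisons with B6, and none of Trem2, Itgax and Cd68 is filled for C3H minus 129Ola.

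For C3H minus 129Ola, a lean susceptible against a lean resistant strain, 5 of 9 genes passed: Cd52, Lyz1, Lyz2 and Csf1r fell and the brightest Itgam probe rose. That share stands beside 37.8% of all genes, 15.3% higher and 22.5% lower, and the median difference was -0.05 in the 9 genes against -0.08. The mice did not overlap in 2 of 9 genes, against 40.2% of all genes. Each strain lay on slides of its own, and with the slide as a random block only 1 gene passed, Itgam on its repeat-bearing probe. The share of all genes called with that block is not given here. With the percentile of probes measured above background by every array, the median over all genes moved to 0.09 and the split of calls to 4538 higher and 2587 lower, against 3169 and 4655, and the same 5 genes passed in the same directions.

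The difference between the set of NZO and DBA against B6 and the pair C3H against 129Ola was tested directly. It passed for 6 of 9 genes, against 31.2% of all genes. Itgax is among the 6, but its probe was well above background in 0 of 4 129Ola mice, so its difference is not a measured one. Trem2 was -1.77 in the first set against 0.29 in the second (difference -2.05 ± 0.48, limma adjusted p = 0.00361). Lyz1 was 0.29 against -0.77 (limma adjusted p = 0.00324). Averaged over both sets, 5 of 9 genes were lower in the susceptible class, against 29.6% of all genes, 17.4% as lower: Cd52 (-1.17 ± 0.14, limma adjusted p = 8.03e-06), Csf1r (-0.53 ± 0.13), Trem2 (-0.74 ± 0.24), Lyz2 (-0.41 ± 0.14) and Cd68 (-0.31 ± 0.08). With the slide as a random block, for which no share of all genes is given here, only Cd52 passed. The strain is the replicate of a class, and with 3 strains against 2 these p-values describe the mice of these strains only. The strain means of the classes overlapped for Cd52, with NZO (2.32) above 129Ola (1.87), for Trem2, with 129Ola (-1.98) below all 3 susceptible strains, and for Lyz2, with NZO (1.64) above both resistant strains. The class difference was -0.18 ± 0.08 on the middle Csf1r probe (limma adjusted p = 0.114) and -0.61 ± 0.12 on the dimmest (limma adjusted p = 0.00143). On both of these probes the 129Ola mean lay below those of NZO and DBA. The dimmer Cd68 probe gave -0.34 ± 0.25 (limma adjusted p = 0.329). It was well above background in 0 DBA, 0 129Ola and 2 C3H mice, so that value is not a measured difference. The class call was lost in 14 of 28 alternative settings for Lyz2 and in 6 of 28 for Trem2.

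The 6 pairs across software versions gave 28 calls out of 54 tests, against 43.5% over all genes. Lyz1 and Lyz2 had the largest differences among them that were called, with NZO above C3H by 2.58 ± 0.18 and 2.27 ± 0.21 on the log2 scale (4.81-fold for Lyz2). Of 9 genes, 4 were called for NZO minus C3H (36.1% of all genes), 5 for DBA minus C3H (34.8%), 2 for NZO minus 129Ola (53%), 5 for DBA minus 129Ola (50.1%), 7 for C3H minus B6 (36.4%) and 5 for 129Ola minus B6 (51%). These values describe strain and version together.

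The lists that follow are to be read against all genes, of which 18.2% passed for NZO minus B6 (median 0.05), 15.3% for DBA minus B6 (median 0.01), 18% for NZO minus DBA (median 0.04) and 37.8% for C3H minus 129Ola (median -0.08). Of 11 tested genes of TREM2 signalling, 1 rose and 5 fell for NZO minus B6 (median -0.40, with 8.55% of all genes lower), and 2 rose and 4 fell for DBA minus B6 (median -0.17, with 8.08% of all genes lower). Tyrobp, the adaptor of TREM2, fell by 0.62 and 0.89 on the log2 scale in these comparisons (limma adjusted p = 0.0171 and 0.00124). Ms4a7, a 4-span membrane protein of macrophages, fell by 1.25 and 1.39 (limma adjusted p = 7.05e-05 and 1.92e-05), and Inpp5d, a lipid phosphatase that damps this signalling, by 0.68 and 0.49. Hcst, which encodes the sister adaptor of Tyrobp, differed by -1.05 ± 0.16 for NZO minus B6 and 0.65 ± 0.16 for DBA minus B6, and NZO was below DBA by -1.70 ± 0.16 (limma adjusted p = 3.66e-07). The sheddase gene Adam17 rose by 0.58 and 0.57. For C3H minus 129Ola 7 of 11 fell and 0 rose (median -0.49, with 22.5% of all genes lower), among them Vav1 (-0.66), Hcst (-0.65) and Tyrobp (-0.61), although Trem2 itself was not called there.

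Of 15 genes of CSF1R signalling and macrophage fate, 4 fell and 0 rose for NZO minus B6, where 18.2% of all genes passed. For DBA minus B6 1 of 15 fell and 0 rose, a smaller share than the 15.3% of all genes. Irf8, a transcription factor of monocyte and dendritic cell development, fell by 0.74 for NZO minus B6 (limma adjusted p = 0.00053), by 0.76 for DBA minus B6 (limma adjusted p = 0.000372) and by 0.69 for C3H minus 129Ola (limma adjusted p = 0.000642). Csf1, a ligand of CSF1R, fell by 0.61 for NZO minus B6 (limma adjusted p = 0.0377), and Il34, the other ligand, fell by 0.87 for C3H minus 129Ola (limma adjusted p = 0.00347). Csf2rb, the shared chain of the GM-CSF receptor, differed by -0.63 for NZO minus B6 and 0.69 for C3H minus 129Ola.

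The wider programme of lipid-associated macrophages had 24 tested genes, many of which hepatocytes also express. For NZO minus B6 2 rose and 5 fell (median -0.05, 18.2% of all genes), for DBA minus B6 0 rose and 8 fell (median -0.22, 15.3% of all genes), and for NZO minus DBA 5 rose and 0 fell (median 0.22, 18% of all genes). Spp1, which encodes osteopontin, averaged 0.86 ± 0.25 in NZO, -0.19 ± 0.17 in DBA and 1.74 ± 0.42 in B6 (SD, n = 4 each), with differences of -0.88 ± 0.17 for NZO minus B6 and -1.93 ± 0.17 for DBA minus B6 (limma adjusted p = 0.00127 and 2.21e-07). Lipa, the lysosomal acid lipase, averaged 5.20 ± 0.20 in NZO, 4.11 ± 0.15 in DBA and 4.12 ± 0.12 in B6, and NZO was higher than B6 by 1.08 ± 0.12 (limma adjusted p = 4.76e-06). Fabp5, a fatty acid binding protein, was lower for DBA minus B6 (-1.15 ± 0.33, limma adjusted p = 0.0218) and 1.13 ± 0.33 higher for C3H minus 129Ola (limma adjusted p = 0.0127), where Fabp4 was also higher by 0.88 ± 0.23.

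Genes of resident Kupffer cells moved with several of these differences. Of 16 tested, 0 rose and 8 fell for NZO minus B6 (median -0.49, 18.2% of all genes called), and 2 rose and 9 fell for DBA minus B6 (median -0.68, 15.3% of all genes). For C3H minus 129Ola 1 rose and 10 fell (median -0.62, 37.8% of all genes), and for NZO minus DBA 2 rose and 0 fell (median 0.00, 18% of all genes). Cd163, among the 10 that fell, was well above background in 0 C3H and 1 129Ola mice, so its difference has no measured size. The mean level of the 16 genes in a mouse ranged from 2.61 to 2.85 in NZO, 2.31 to 2.45 in DBA, 1.91 to 2.69 in C3H, 3.06 to 3.40 in B6 and 2.72 to 3.02 in 129Ola. Clec4f, a lectin specific to Kupffer cells, fell by 1.12 for NZO minus B6 (limma adjusted p = 1.72e-05), and the scavenger receptor gene Marco fell by 1.81 (limma adjusted p = 0.00311). Folr2 was at -2.32 ± 0.08 in DBA and -1.85 ± 0.37 in C3H, against 2.84 ± 0.20 in NZO, 2.61 ± 0.13 in B6 and 2.45 ± 0.30 in 129Ola (SD, n = 4 each). Adgre1, the F4/80 gene, fell by 1.44 for C3H minus 129Ola (limma adjusted p = 4.34e-06), and Marco was the 1 gene that rose there (1.35 ± 0.39, limma adjusted p = 0.0132). The part of Kupffer cell number in the differences of Trem2, Itgax, Cd52 and Cd68 was not tested.

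Of 18 tested monocyte genes, 2 rose and 5 fell for NZO minus B6 (median -0.19, 18.2% of all genes called). For DBA minus B6 1 rose and 1 fell (median -0.35), a smaller share than the 15.3% of all genes, and for C3H minus 129Ola 5 rose and 2 fell (median -0.02, 37.8% of all genes). Ly6c1, which endothelial cells also express, was 2.84 ± 0.24 higher for NZO minus B6 (limma adjusted p = 1.24e-07), and Chil3 differed by -2.36 ± 0.54 (limma adjusted p = 0.0043), with 3 of 4 NZO mice against 4 of 4 B6 mice well above background. F13a1, also counted as lower there, was well above background in 1 NZO mouse and passed the filter through B6 alone, so its difference has no measured size. F13a1 is also among the 5 counted as higher for C3H minus 129Ola. It was well above background in 0 C3H and 0 129Ola mice, so that call is not a measured difference. Cx3cr1, the fractalkine receptor of patrolling monocytes, was 3.06 ± 0.33 higher for C3H minus 129Ola (limma adjusted p = 2.37e-06), with 4 of 4 C3H mice against 2 of 4 129Ola mice well above background, and 1.59 ± 0.33 higher for DBA minus B6 (limma adjusted p = 0.00237), opposite to Cd52 in both comparisons.

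Other cell types were read from short lists. Dendritic cell genes gave 1 higher and 4 lower of 10 for NZO minus B6 and the same counts for DBA minus B6, against 18.2% and 15.3% of all genes. The 10 genes include Cd209a and Flt3, which passed the filter through B6 alone, so these counts are a description only. Neutrophil genes gave 3 higher and 1 lower of 10 for NZO minus B6 (18.2% of all genes called) and 4 higher and 1 lower for NZO minus DBA (18% of all genes), where Lyz1 and Lyz2 were also higher, with Camp higher by 1.87 ± 0.42 and 2.29 ± 0.42 and Ly6g by 1.68 ± 0.16 and 1.82 ± 0.16. The 1 lower gene was Lcn2, which hepatocytes also make, at -2.69 ± 0.62 for NZO minus B6 (limma adjusted p = 0.00496) and -1.96 ± 0.62 for NZO minus DBA (limma adjusted p = 0.0356). The higher counts include Ltf, which was well above background in 2 DBA and 2 B6 mice and passed the filter through NZO alone. These counts are therefore a description only. The part of neutrophils in the lysozyme differences was not tested. Pan-leukocyte genes gave 0 higher and 2 lower of 10 for NZO minus B6 and for DBA minus B6, near the 18.2% and 15.3% of all genes, and 0 higher and 4 lower for C3H minus 129Ola, near its 37.8%. Across software versions they gave 0 higher and 8 lower for C3H minus B6 (36.4% of all genes) and 0 higher and 5 lower for 129Ola minus B6 (51%). Of the 4 lower for C3H minus 129Ola, Cybb was well above background in 0 C3H and 0 129Ola mice. Cd53, also among the 4, was well above background in 0 C3H and 2 129Ola mice. Their differences have no measured size, and the list has the same limit in C3H and 129Ola against B6. Hepatocyte genes gave 0 calls of 10 for NZO minus B6 (median 0.01) and for DBA minus B6 (median 0.12), and 2 higher and 2 lower for C3H minus 129Ola. They gave 3 higher and 1 lower for C3H minus B6 and 3 higher and 2 lower for 129Ola minus B6.

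Among the 9 genes, likeness over the 20 livers is given as Pearson's r with no test, since mice of a strain share a genotype and an array batch. Trem2 ran most like Itgax (0.77, and 0.52 within strains) and Cd52 (0.76 and 0.57). Cd52 and Csf1r had an r of 0.55 that was 0.81 within strains, and Cd68 and Csf1r had 0.32 that was 0.76 within strains, so mice of 1 strain with more Csf1r signal tended to have more Cd52 and Cd68 signal as well. The r of Lyz1 and Cd68 was -0.27 and 0.22 within strains. Among 15237 other genes well above background on every array, those most like Trem2 were Pla1a (0.88) and Pttg1 (0.87), and Cd52 had an r of 0.91 with Spp1. Csf1r had an r of 0.91 with Akr1b10, and 0.78 within strains. Itgax ran most like Col6a1 (0.85) and Cpd (0.84), Cd68 like Cldn14 (0.89) and Slc38a1 (0.85), and Cd9 like Tceal9 (0.80) and Bbc3 (0.78). Lyz2 ran most like Atxn7l3 (0.95), and Lyz1 like 2 probes that the files annotate to no named gene (0.96 and 0.94).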

How the data were processed

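Liver RNA of 20 mice was measured, 1 array each. The deposited intensity values are, per the file headers, background-subtracted, spatially detrended processed signals from Agilent Feature Extraction 11.0.1.1 (NZO, DBA, B6) or 11.5.1.1 (C3H, 129Ola), without normalization between arrays; the submitters' processing notes name 9.1. The mean and background intensities deposited beside them served as an alternative. Flags deposited as 0 or 1 mark spots well above background, saturated spots (0 found) and outlier spots (96 to 186 per array, left out). The authors' deposited table of intensity values (37892 probes, column median 19.9, how it was scaled not given in the sources used here) was another alternative, with log2 taken here.

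Of 62976 spots, 3671 controls were left out, and spots of a probe were averaged. Here log2 signal was scaled to each array's 75th percentile. A probe entered when well above background on all 4 arrays of a strain (28417 probes), and the brightest such probe stood for its gene (20684 genes). Differences came from limma 3.58.1 (R 4.3.3; lmFit and eBayes over all 20 arrays, 1 mean per strain, Benjamini-Hochberg over all genes, threshold 0.05), checked on simulated data. The number of arrays limits the precision. The labels give an animal number per array, read as 1 mouse each, so the spread behind each p-value is that between mice. Probe coordinates are mm9, per the file headers, and exon and UTR annotation was not used here. Of 29107 probes with a RefSeq accession, 27641 matched the gene table by which symbols were updated. Named genes are the 10 genes on every probe, up to 3 called genes of each list and comparison with the largest difference (up to 5 for the lists of lipid-associated macrophages, TREM2 signalling and CSF1R), and the 2 genes most like each gene, some of which are not reported here. The defining genes of skeletal muscle and adipocytes were among those listed, with 4 of 8 and 2 of 7 tested. The genes and lists were chosen with earlier results of these data known. Alternatives were normexp (offset 50), quantile scaling, the percentile of probes that every array measured above background, no filter, the mean of a gene's probes, only the strains compared, slide, scan day and replicate blocks, leaving out each mouse, and other probes.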

Additional observations from a re-analysis of the deposited data

Results flagged for a closer look

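In 45 groups of 4 mice (9 genes, 5 strains), 2 mice lay far from the other 3 of their strain, and chance gives such a gap in about 1 of 20 groups. The Itgax level of B6 mouse 15 was -1.0, and the remaining B6 mice lay at -1.76 to -1.72. The Cd68 level of NZO mouse 7 was 1.98, against 1.62 to 1.68 in the other NZO mice. The 4 tested skeletal muscle genes averaged 2.63 in NZO mouse 7, against -2.98, -3.15 and -2.54 in NZO mice 3, 9 and 11. In B6 mouse 10 they averaged 1.06, against -2.14, -1.10 and -0.39 in B6 mice 9, 11 and 15. Only 1 of the 4 was well above background on all arrays. NZO mouse 7 was also the 1 NZO mouse on the later scan day shared with B6. A part of muscle RNA in its values was not tested.

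The susceptible minus resistant difference was not the same in the set of NZO and DBA with B6 as in C3H with 129Ola for 6 of 9 genes by the limma test of the difference itself. Of all genes, 31.2% passed that test. The difference between the sets was -2.05 ± 0.48 for Trem2 (SE, limma adjusted p = 0.00361), -0.53 ± 0.17 for Cd68 (adjusted p = 0.0244) and -1.77 ± 0.29 for the brightest Itgam probe (adjusted p = 0.000175). It was 1.05 ± 0.24 for Lyz1 (adjusted p = 0.00324) and 0.93 ± 0.28 for Lyz2 (adjusted p = 0.0184). The fit also gave -2.34 for Itgax, but no 129Ola mouse was well above background there, so this is not a measured difference. For Itgam the 2 dimmer probes gave 0.35 ± 0.50 and 0.18 ± 0.54 (limma adjusted p = 0.637 and 0.837).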

How the results depend on the processing

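Over all settings run, Lyz1 for NZO minus B6 (0.56 to 0.77) and Cd52 for DBA minus B6 kept their calls. Leaving out each mouse gave 4 to 5 called genes for NZO minus B6, 4 to 5 for DBA minus B6, 3 to 5 for NZO minus DBA, 5 to 5 for C3H minus 129Ola, 3 to 5 for the class and 26 to 30 for the pairs across versions. The class count was 3 without C3H mouse 5 and 3 without 129Ola mouse 4. With the slide as a random block, for which no share of all genes is given here, 1 gene was called for C3H minus 129Ola and 1 for the class. With the second brightest probe, chosen after seeing the data, 3 were called for each of these. Equal animal numbers do not pair the mice (r of deviations -0.34 to 0.38 over 13 pairs). With the replicate block 1 gene was called for NZO minus B6, 3 for DBA minus B6, 3 for C3H minus 129Ola and 1 for the class. No share of all genes is given here for the replicate block, for the second brightest probe or for leaving out each mouse.

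The differences that changed sign were not called in either setting, except those of Itgam and Csf1r for C3H minus 129Ola, called on the brightest probe and, for Csf1r, also on probe 3, and the cause was not tested. For C3H minus 129Ola they were Cd68 with normexp (0.10), quantile scaling (0.10), the percentile over bright probes (0.12), the authors' table (0.10), the mean of probes (0.41) and probe 2 (0.86), Itgax (-0.12) and Trem2 (-0.08) with normexp, Itgam on probes 2 (-0.14) and 3 (-0.16) and Csf1r on probe 2 (0.22). Others were Itgam for NZO minus B6 with the mean of probes (0.19) and on probes 2 (0.44) and 3 (0.21), Itgam for the class on probe 3 (-0.08), Itgax for NZO minus DBA with normexp (0.08) and Cd9 for NZO minus DBA with the scan day block (0.09). Leaving out each mouse gave -0.21 to 0.13 for Itgam in NZO minus B6, and for C3H minus 129Ola -0.16 to 0.04 for Cd68, -0.01 to 0.33 for Cd9 and -0.11 to 0.58 for Trem2. Signals near background limit Gpnmb, Itgax and Trem2 in 129Ola. They also limit Cd68 probe 2, well above background in 0 129Ola mice, and Itgam probes 2 and 3, each in 2 C3H and 2 129Ola mice.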
